A study of Rattus norvegicus with 64 samples.

Results

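The transforming growth factor beta (TGF-β) and activin genes measured here were the ligand genes Tgfb1, Tgfb2, Tgfb3, Inhba and Inhbb, the receptor genes Tgfbr1, Tgfbr2 and Tgfbr3, and the latency genes Ltbp1 and Ltbp2. Members were taken by symbol, through the RefSeq transcript that the array file gives for each probe. All 10 genes were found, with 14 probes, among 15709 named genes on the array. Tgfb2, Tgfbr2, Inhbb and Ltbp2 had 2 probes each, and the brighter one over all 64 arrays stands for the gene unless the second probe is named.

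The bladder wall of male Wistar rats was reconstructed after hemicystectomy, the removal of part of the bladder. All 8 groups received about 1 cm2 of BAM (Bladder Acellular Matrix, bladder wall freed of its cells), either unseeded or seeded with 10000000 adipose derived stem cells of passage 3 (ADSCs in the labels, ASCs here) from the retroperitoneal fat of rats aged 10 weeks. Walls were taken 7, 30, 90 and 180 days after surgery, and RNA of 8 walls of each graft and day was hybridized to 64 one-color arrays. The host rats were syngeneic, their age is not given in the sources used here, and no intact bladder is among the arrays. The ASCs carried no label that the arrays could read, so transcripts of seeded cells and of host cells cannot be told apart. In such bulk RNA, fewer cells of a type and less RNA per cell cannot be told apart either. Between 9 and 11 of the 11 urothelium markers, and all 9 measured smooth muscle markers, were well above background on every array of each group.

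TGF-β ligands are secreted with a latency peptide, and latent TGF-β binding proteins such as Ltbp1 tie that complex to the matrix until integrins or proteases release it. The released ligand joins the type 2 receptor Tgfbr2 to the type 1 receptor Tgfbr1, which phosphorylates Smad2 and Smad3, while Tgfbr3 (betaglycan) is a co-receptor that presents the ligand. Inhba and Inhbb encode the βA and βB chains of activins, which signal through activin receptors to the same Smads and are held back by follistatin. In the wounded bladder wall, as in other wounds, the pathway is known for its part in matrix deposition, fibroblast activation and smooth muscle differentiation.

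No slide held more than 1 group, so slide and group cannot be told apart in any comparison. The short follow-up (7 and 30 days) had a different scan date from the long one (90 and 180 days). Scan date and day therefore cannot be told apart in comparisons between the short and the long follow-up. In the short follow-up 73.3% to 95.6% of gene spots stood well above background, against 35.5% to 64.6% in the long one. The 95.6% came from BAM with ASCs replicate 1 at 30 days, whose group otherwise had 74.1% to 86.2%. The 35.5% came from BAM replicate 8 at 90 days, whose group otherwise had 53.0% to 58.5%. Local background averaged 43.4 to 50.4 units per group in the short and 108.2 to 345.3 units in the long follow-up, with BAM at 90 days the highest. Values below are log2 signals relative to the 75th percentile of the array, and a gene is called a DEG where the limma adjusted p is below 0.01 and the signal differs by more than 1.5-fold. The number of arrays limits the precision.

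By the brighter probe, Inhba, Inhbb and Tgfbr1 were the members called lower at 90 than at 30 days in both grafts. Their upstream sequence is printed for that reason. It covers the 250 bases before the RefSeq gene start in assembly GRCr8, 5′ to 3′ on the strand of the gene, with motif matches in capitals. The windows are chr17:53804509-53804758 (minus strand), chr13:33089374-33089623 (minus strand) and chr5:66449148-66449397 (plus strand).
Inhba: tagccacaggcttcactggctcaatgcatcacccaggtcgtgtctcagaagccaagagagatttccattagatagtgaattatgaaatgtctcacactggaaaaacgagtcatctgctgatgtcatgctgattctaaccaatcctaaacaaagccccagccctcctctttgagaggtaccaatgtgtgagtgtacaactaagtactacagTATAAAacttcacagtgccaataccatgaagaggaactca
Inhbb: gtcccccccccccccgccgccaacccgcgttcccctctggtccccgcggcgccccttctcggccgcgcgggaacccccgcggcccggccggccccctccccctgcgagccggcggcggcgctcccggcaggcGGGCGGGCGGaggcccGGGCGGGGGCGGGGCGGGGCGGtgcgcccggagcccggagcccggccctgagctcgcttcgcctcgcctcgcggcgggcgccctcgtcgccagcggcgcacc
Tgfbr1: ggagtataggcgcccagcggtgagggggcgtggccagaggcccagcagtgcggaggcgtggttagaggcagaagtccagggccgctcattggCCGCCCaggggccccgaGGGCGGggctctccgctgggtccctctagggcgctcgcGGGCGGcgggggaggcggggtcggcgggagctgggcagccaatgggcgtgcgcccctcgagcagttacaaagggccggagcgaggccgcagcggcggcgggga
The motifs searched on both strands were the SMAD element CAGAC, the AP-1 element TGANTCA, the cAMP response element TGACGTCA, the GC box GGGCGG and the TATA box TATAAA. In the Inhba window the capitals mark 1 TATA box, whose first base lies 40 bases before the gene start, and 43.6% of its bases are G or C. In the Inhbb window they mark 6 GC boxes, some of which share bases, in 86.8% G or C. In the Tgfbr1 window they mark 3 GC boxes in 75.6% G or C. None of these 3 windows held the SMAD, AP-1 or cAMP letters. Over the 33469 windows of the table the median was 51.2% G or C, a GC box was found in 30.5%, a TATA box in 12.9%, the SMAD element in 42.9%, the AP-1 element in 6.34% and the cAMP element in 1.59%. Of the other members, Ltbp2 held 3 SMAD elements and 1 GC box, and Ltbp1 held 1 SMAD element and 1 cAMP element. Tgfbr2 and Tgfbr3 held 1 GC box each. These matches describe letters in the window and no binding was measured.

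Inhba, the activin βA chain, differed between grafts early on and had the largest change over time of the members. In bladders reconstructed using BAM only its signal at 7 days ranged from 1.20 to 3.00 with a median of 1.97. With ASCs it ranged from 0.89 to 2.25 with a median of 1.11. The ranges overlapped, and 5 of the 8 seeded arrays lay below all 8 unseeded ones. Inhba was 1.70-fold lower with ASCs at 7 days (log2 difference -0.77 ± 0.20 SE, limma adjusted p = 0.00389). It was the 1 member of 10 that was a DEG at 7 days, where 7.71% of the 30367 probes were DEGs (2.11% higher and 5.6% lower). The call was lost without BAM seeded with ASCs replicate 1, 4 or 6 or BAM replicate 6 or 7, where the limma adjusted p was between 0.0103 and 0.0224, and in 3 of 10 alternatives of processing and model, namely after quantile normalization (limma adjusted p = 0.0106), with scaling over detected probes (limma adjusted p = 0.0115) and in a fit of these 2 groups alone (limma adjusted p = 0.0337).

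By 30 days the difference in Inhba was small. Its signal ranged from 0.47 to 1.94 (median 1.11) with BAM only and from 0.48 to 1.42 (median 0.92) with ASCs. At 90 days it ranged from -1.37 to -0.42 (median -1.10) with BAM only and from -1.77 to -0.62 (median -1.03) with ASCs. At 180 days it ranged from -1.34 to -0.64 (median -1.22) in BAM only and -1.18 to -0.29 (median -0.77) with ASCs. The log2 difference with ASCs was -0.23 ± 0.20 (SE) by 30 days, -0.14 ± 0.20 by 90 and 0.38 ± 0.20 by 180, and none of these was a DEG. The effect of the graft at 180 days minus that at 7 days was 1.15 ± 0.28 (SE, limma adjusted p = 0.00233), against 8.44% of probes called in the same contrast. That difference between days was a DEG without any 1 of the 32 arrays of these days, and in all 10 alternatives of processing and model that kept both thresholds.

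Over time Inhba fell in both grafts. In BAM only it fell by 0.91 on the log2 scale from 7 to 30 days (limma adjusted p = 4.35e-04) and by 2.08 from 30 to 90 days (limma adjusted p = 3.16e-13). The fall from 7 to 30 days was not called in a fit of these 2 groups alone (limma adjusted p = 0.0161). With ASCs the change from 7 to 30 days was -0.37 and not a DEG, and from 30 to 90 days Inhba fell by 1.99 (limma adjusted p = 5.43e-12). All 8 arrays of 90 days lay below all 8 of 30 days in each graft. The mean levels ordered the groups as BAM at 7 days (2.06 ± 0.52, SD, n = 8), BAM with ASCs at 7 days (1.29 ± 0.46), BAM at 30 days (1.15 ± 0.54) and BAM with ASCs at 30 days (0.91 ± 0.33), followed by all 4 groups of 90 and 180 days between -0.78 and -1.16. A gap larger than the SD of the groups stood after the first and after the fourth group of this order, while the other neighbors differed by less than their SD. The fall coincides with the change of scan date, and day and scan date cannot be told apart.

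**Figure D1:**
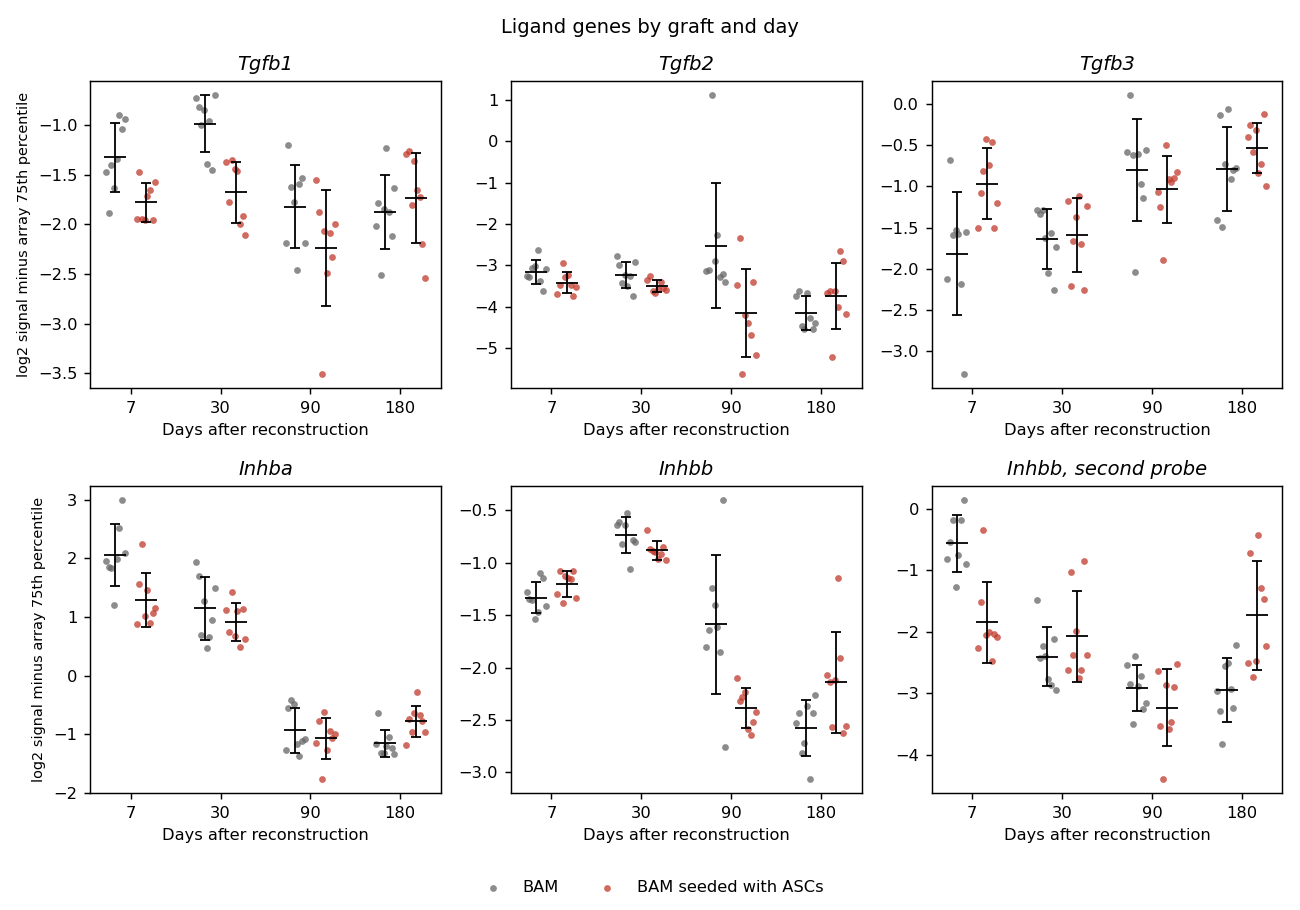
Log2 signal relative to the 75th percentile of the array (vertical axis) of the ligand genes by days after reconstruction, with 1 point per array, BAM in gray, BAM seeded with ASCs in red, and black bars for mean ± SD of 8 arrays. Inhba lies between 0.47 and 3.00 at 7 and 30 days and below 0 at 90 and 180 days in both grafts, and the last panel shows that the second Inhbb probe does not follow the first.

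Inhbb, the activin βB chain, differed between grafts at 90 days. With BAM only its signal there ranged from -2.76 to -0.40 (median -1.63), and with ASCs from -2.65 to -2.10 (median -2.37). The seeded arrays kept to a narrow range at the lower end of the wide range of the unseeded ones. Inhbb was 1.74-fold lower with ASCs at 90 days (log2 difference -0.80 ± 0.16 SE, limma adjusted p = 1.42e-04). It was 1 of 2 members called at 90 days, both lower, where 12.4% of all probes were called (3.87% higher and 8.57% lower). After normexp background correction the difference was -0.54 and under the 1.5-fold threshold, a fit of these 2 groups alone gave a limma adjusted p of 0.0205, and the mean of both probes gave -0.56 (limma adjusted p = 0.0181). On the other days, in order, the difference was 0.13, -0.15 and 0.44, and none of these was a DEG.

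The effect of the graft on Inhbb was tested between days. It was lower at 90 than at 7 days by 0.93 ± 0.23 on the log2 scale (SE, limma adjusted p = 0.00332), where 5.82% of probes were called, and higher at 180 than at 90 days by 1.24 ± 0.23 (limma adjusted p = 4.69e-05), where 9.75% were called. The second Inhbb probe gave another course. With that probe Inhbb was lower with ASCs at 7 days (-1.28 ± 0.30 SE, limma adjusted p = 0.00153) and higher at 180 days (1.21 ± 0.30, limma adjusted p = 0.00661), and the differences at 30 and 90 days were 0.33 and -0.32. Its graft effect at 90 minus 7 days was 0.96 ± 0.43 (SE, limma adjusted p = 0.146), opposite in sign to the first and not a DEG, and the mean of both probes gave 0.014 (limma adjusted p = 0.98). The call on the first probe was also lost after normexp correction (-0.49, limma adjusted p = 0.0387) and in a fit of these groups alone (limma adjusted p = 0.0164). On the second probe the values at 7 days ranged from -1.27 to 0.14 (median -0.65) in BAM only and from -2.47 to -0.35 (median -2.04) with ASCs. Both probes rose in the effect of the graft from 90 to 180 days, the second by 1.53 ± 0.43 (limma adjusted p = 0.00688). Across the 64 arrays the probes correlated with r = 0.36 in level and r = 0.21 in deviation from the group means, given as a description of probes on shared arrays, so the direction for Inhbb at 7 days, and between 7 and 90 days, depends on the probe.

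Over time Inhbb rose from 7 to 30 days in BAM only by 0.60 ± 0.16 (SE, limma adjusted p = 0.00531), with all 8 arrays above, then fell by 0.85 (limma adjusted p = 9.49e-06) and again by 0.99 from 90 to 180 days (limma adjusted p = 3.11e-06). With ASCs it fell by 1.51 from 30 to 90 days (limma adjusted p = 6.31e-11), with all 8 arrays of 90 days below all of 30 days, and was not a DEG before or after. The second probe fell from 7 to 30 days in BAM only by 1.84 (limma adjusted p = 4.64e-06), opposite to the first. It also fell by 1.16 from 30 to 90 days with ASCs (limma adjusted p = 0.00122), as the first did. In BAM only the second probe changed by -0.51 over the same days, under the 1.5-fold threshold. From 90 to 180 days the probes parted again. The second changed by -0.027 in BAM only, and with ASCs it rose from a mean of -3.24 to -1.73 (limma adjusted p = 2.30e-04), with 7 of 8 arrays above all of 90 days, where the first changed by 0.25 and was not a DEG. The rise of the first probe from 7 to 30 days was lost without BAM 7 days replicate 4, 5 or 8 or BAM 30 days replicate 1, 2, 4 or 5.

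Tgfb2, one of the 3 TGF-β ligand genes, was often not above background in the long follow-up. Its signal at 90 days ranged from -3.40 to 1.12 (median -3.12) with BAM only and from -5.64 to -2.33 (median -4.31) with ASCs. Only 4 of 8 unseeded and 3 of 8 seeded arrays were well above background, and BAM replicate 3 alone reached 1.12. Tgfb2 was called lower with ASCs at 90 days (log2 difference -1.64 ± 0.37 SE, limma adjusted p = 5.46e-04), but with so many arrays at background the size of the difference is not well measured. Local background averaged 345.3 units in BAM and 108.2 units in BAM with ASCs on that day, and its part in the difference was not tested. Without that replicate the difference was -1.12 (limma adjusted p = 0.00191). The second Tgfb2 probe gave -0.33 ± 0.22 at 90 days and was not a DEG, and on it BAM replicate 3 read -3.44. After normexp correction the first probe gave -0.56, after quantile normalization it was not called (limma adjusted p = 0.0682), nor in a fit of these 2 groups alone (limma adjusted p = 0.0448), and a filter on dim probes removed it.

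The effect of the graft on Tgfb2 at 180 days minus that at 90 days was 2.07 ± 0.52 (SE, limma adjusted p = 0.00259). It was not called after quantile normalization (limma adjusted p = 0.0511) or in a fit of these groups alone (limma adjusted p = 0.0393). In BAM only Tgfb2 fell by 1.64 from 90 to 180 days (limma adjusted p = 4.63e-04). That fall was not called after quantile normalization (limma adjusted p = 0.0102) or in a fit of these 2 groups alone (limma adjusted p = 0.0493). The second probe changed by -0.35 over the same days, under the 1.5-fold threshold. All of these differences rest on the values of BAM at 90 days. At 7, 30 and 180 days the difference with ASCs was -0.25, -0.27 and 0.42, and none of these was a DEG. On the second probe the difference was -0.33 at 90 and 0.48 at 180 days. At 7 and 30 days every array was well above background for Tgfb2, and group medians lay between -3.56 and -3.16.

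Tgfb1, the ligand gene best known from scarring, was not a DEG between grafts on any day. At 30 days its signal ranged from -1.45 to -0.70 (median -0.90) with BAM only and from -2.11 to -1.35 (median -1.62) with ASCs. In 5 of 8 seeded arrays it was below all unseeded ones. The log2 difference at 30 days was -0.69 ± 0.19 (SE, 95% confidence interval -1.08 to -0.30, limma adjusted p = 0.0195), and the differences of the other days, in order, were -0.45, -0.42 and 0.15. None of the 10 members was a DEG at 30 days by limma or without its moderation, where 1.67% of all probes were. At an unadjusted p below 0.05 there were 3, Tgfb1, Tgfbr1 and Ltbp1, and after quantile normalization Tgfb1 was called (-0.75, limma adjusted p = 0.00688). In BAM only Tgfb1 fell by 0.83 from 30 to 90 days (limma adjusted p = 1.68e-04), with 7 of 8 arrays below all of 30 days. With ASCs the change over the same days was -0.56 and not a DEG.

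Tgfb3, the third ligand gene, was not a DEG between grafts on any day either. At 7 days it ranged from -3.28 to -0.68 (median -1.58) with BAM only and from -1.51 to -0.42 (median -0.94) with ASCs. The difference of 0.85 ± 0.25 (SE, 95% confidence interval 0.36 to 1.34) missed the threshold by little (limma adjusted p = 0.0105). It was called without BAM seeded with ASCs replicate 1 or 7, without BAM replicate 2 or 4, and with the scaling over detected probes (0.95, limma adjusted p = 0.00506). At 30, 90 and 180 days the difference was 0.05, -0.23 and 0.26. In BAM only Tgfb3 rose by 0.84 ± 0.25 from 30 to 90 days (limma adjusted p = 0.00251), with 7 of 8 arrays above all of 30 days, while with ASCs the change was 0.56 and not a DEG.

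**Figure D2:**
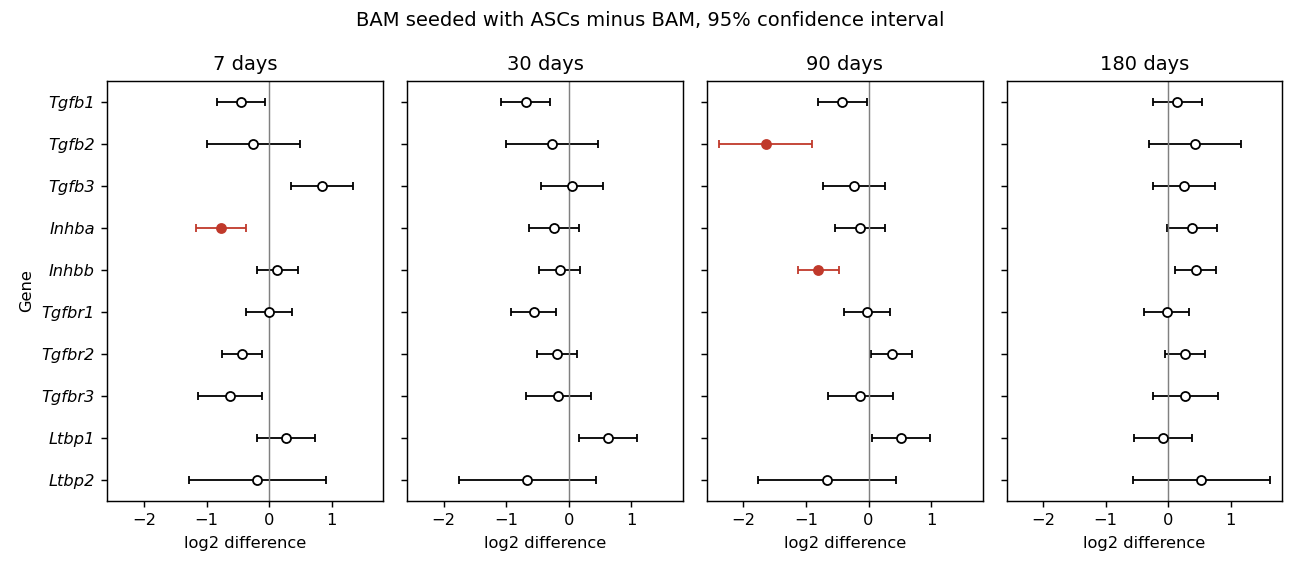
Log2 difference of BAM seeded with ASCs minus BAM (horizontal axis) for the 10 genes (vertical axis) at each day, with 95% confidence intervals from limma over 64 arrays; filled red points are DEGs. The DEGs are Inhba at 7 days and Tgfb2 and Inhbb at 90 days, all lower with ASCs, and the intervals of Ltbp2 are the widest. Over all probes 5.6% were lower and 2.11% higher at 7 days, and 8.57% lower and 3.87% higher at 90 days.

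Among the receptors, Tgfbr1, the type 1 receptor kinase, fell over time in both grafts. Its signal at 30 days ranged from 0.54 to 1.88 (median 1.23) with BAM only and from -0.06 to 1.18 (median 0.85) with ASCs. At 90 days it ranged from -0.90 to 0.44 (median -0.45) and from -0.87 to 0.14 (median -0.38), respectively. Every array was well above background. From 30 to 90 days Tgfbr1 fell by 1.57 ± 0.18 in BAM only (SE, limma adjusted p = 9.39e-11), with no overlap, and by 1.03 ± 0.18 with ASCs (limma adjusted p = 5.05e-06), with 7 of 8 arrays below. Over these days 5 members were called in BAM only (1 higher, 4 lower) and 3 with ASCs (all lower), against 44.7% and 28.0% of all probes. By direction, 35.2% of all probes were higher and 9.49% lower in BAM only, and 17.8% higher and 10.3% lower with ASCs. The members thus had more lower than higher calls where the array had more higher ones, which was not tested as a list. The graft difference in Tgfbr1 was -0.56 ± 0.18 at 30 days (SE, limma adjusted p = 0.0424) and within 0.03 of 0 at the other days.

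Tgfbr2, the type 2 receptor that binds the ligand first, rose with ASCs from 7 to 30 days by 0.59 ± 0.16 (SE, limma adjusted p = 0.00511). Its signal went from a range of -1.86 to -1.60 (median -1.71) to a range of -1.52 to -0.63 (median -1.20), with all 8 arrays above those of 7 days. It was the only member called over that interval, where 8.04% of probes were, and the call was lost without 5 single arrays, named in the closing section. It was also lost in 3 of 10 alternatives, after normexp correction (0.51) and quantile normalization (0.55), both under the 1.5-fold threshold, and with scaling over detected probes (0.53, limma adjusted p = 0.0103). In BAM only 2 members were called over the same interval (Inhba lower, Inhbb higher) against 8.63% of probes. With ASCs minus BAM only, Tgfbr2 differed by -0.43, -0.19, 0.37 and 0.26 over the 4 days in order, and no day was called. The second Tgfbr2 probe gave -0.13 at 90 days, opposite in sign to the first.

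Tgfbr3, the co-receptor, was well above background on 35 of 64 arrays, the fewest of the members. At 7 days it ranged from -5.32 to -4.31 (median -5.01) with BAM only and from -5.98 to -5.11 (median -5.52) with ASCs. The difference of -0.63 ± 0.26 (SE) was not a DEG (limma adjusted p = 0.0839), with 5 of 8 seeded arrays below all others. At 180 days only 1 seeded and 0 unseeded arrays were well above background, so no fold is given there, and the limma adjusted p was 0.80. At 30 and 90 days the differences were -0.17 and -0.13.

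**Figure D3:**
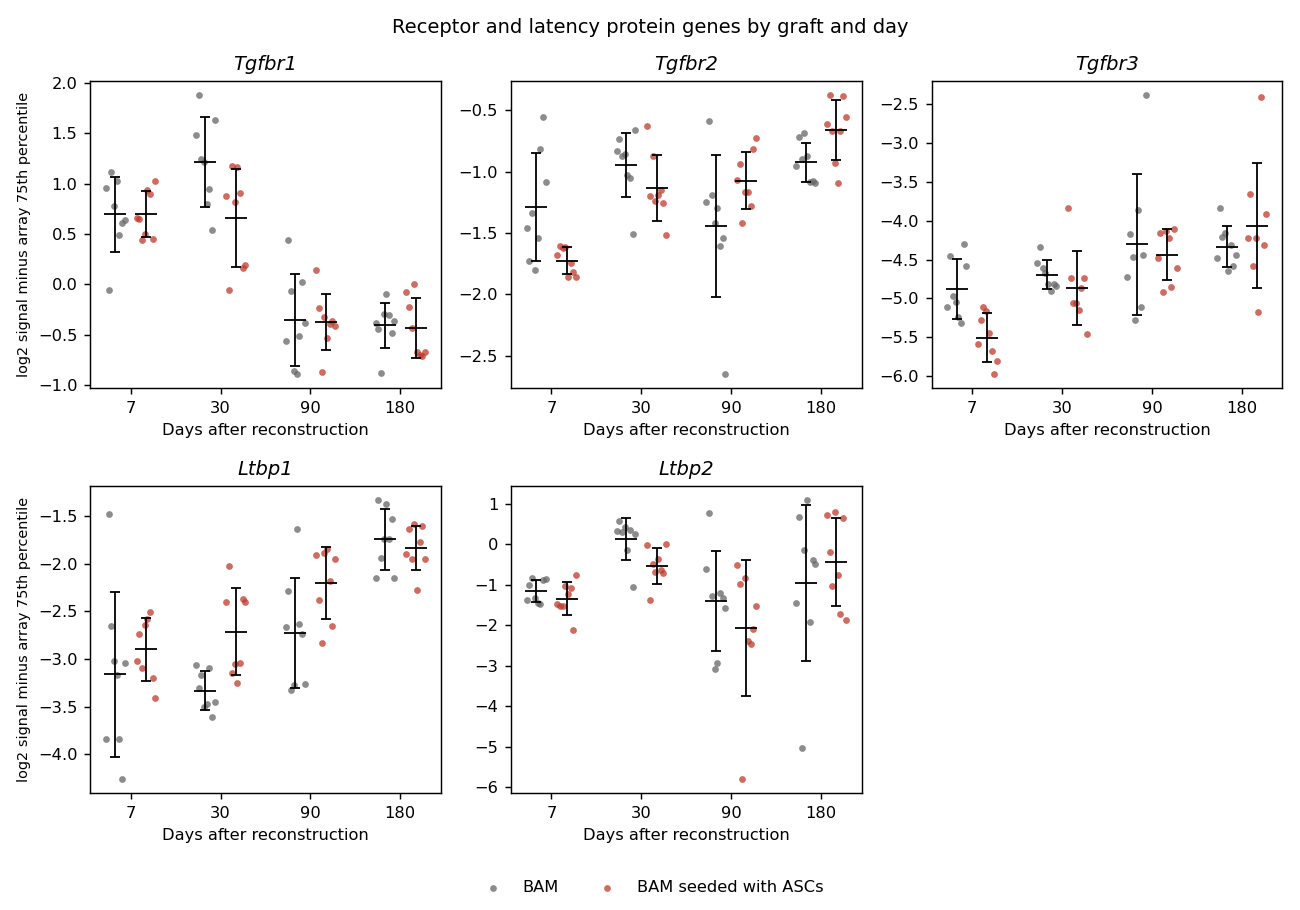
Log2 signal relative to the 75th percentile of the array (vertical axis) of the receptor and latency genes by days after reconstruction, with 1 point per array, BAM in gray, BAM seeded with ASCs in red, and black bars for mean ± SD of 8 arrays. Tgfbr1 falls between 30 and 90 days in both grafts, Ltbp1 is higher at 180 days, and Ltbp2 spreads widely at 90 and 180 days.

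Ltbp1, which anchors latent TGF-β in the matrix, had a log2 difference of 0.62 ± 0.23 with ASCs at 30 days (SE, limma adjusted p = 0.0796), not a DEG. There it ranged from -3.60 to -3.07 (median -3.38) with BAM only and from -3.25 to -2.03 (median -2.72) with ASCs, and 6 of 8 seeded arrays lay above all unseeded ones. On the other days it differed by 0.26, 0.52 and -0.09. In BAM only Ltbp1 rose by 0.98 ± 0.23 from 90 to 180 days (limma adjusted p = 8.44e-04). It was 1 of 3 members called then, with Tgfb2 and Inhbb lower, against 9.36% of probes. With ASCs no member was called from 90 to 180 days by limma or without moderation, where 4.13% of probes were, and 4 (Tgfb1, Tgfb3, Tgfbr2, Ltbp2) had an unadjusted p below 0.05.

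Ltbp2, a matrix protein of the same family that does not bind latent TGF-β, varied more between arrays in the long than in the short follow-up. Its SD was 0.28 to 0.52 within the groups of 7 and 30 days and 1.09 to 1.92 within those of 90 and 180 days. From 7 to 30 days Ltbp2 rose by 1.28 in BAM only and by 0.81 with ASCs, each with 7 of 8 arrays above all of 7 days. From 30 to 90 days it fell by 1.54 in both grafts. None of these changes was a DEG, and their SE is shared by all 8 groups, so it includes the spread of the long follow-up. The second probe changed by 1.04 and 0.17, then by -1.25 and -1.27. At 180 days Ltbp2 ranged from -5.03 to 1.10 (median -0.44) with BAM only and from -1.88 to 0.79 (median -0.48) with ASCs. The difference there was 0.53 ± 0.55 (SE), and it was -0.05 without BAM replicate 3. At 7, 30 and 90 days the difference was -0.19, -0.66 and -0.66, and none of these was a DEG. The second Ltbp2 probe gave 0.39 at 7 days, opposite in sign to the first. No member was called at 180 days, where 2.42% of probes were. Without moderation the number at 180 days was also 0, and at an unadjusted p below 0.05 it was 1, Inhbb.

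**Figure D4:**
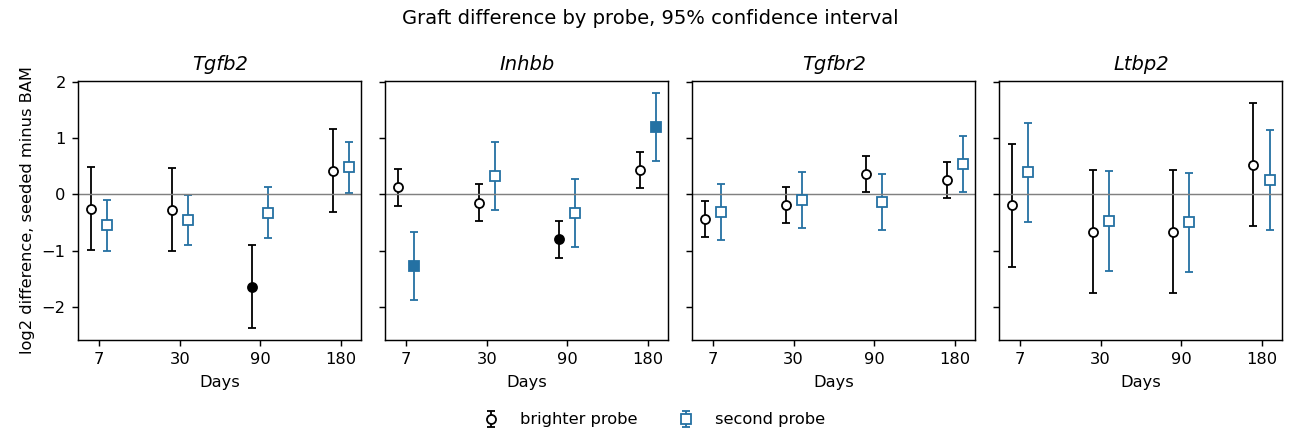
Log2 difference of BAM seeded with ASCs minus BAM (vertical axis) with 95% confidence intervals by day, for the 4 genes with 2 probes; circles are the brighter and squares the second probe, filled where called. The called differences of Tgfb2 and Inhbb at 90 days are on the brighter probe, those of Inhbb at 7 and 180 days on the second, while the probes of Tgfbr2 and Ltbp2 have no calls.

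The other tests between days called no member. This holds for the effect of the graft at 30 minus 7 days (0.985% of probes called), at 90 minus 30 days (9.96%) and at 180 minus 30 days (2.48%), by limma or without moderation. At an unadjusted p below 0.05 these had 2, 4 and 5 members, respectively. With an unadjusted p below 0.01 in place of the adjusted one, the 6 pairs of days gave 9 calls in all, against 4. The median log2 difference of the 10 members with ASCs over the 4 days in order was -0.22, -0.21, -0.19 and 0.27, beside -0.16, 0.11, -0.27 and 0.06 over all probes.

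Other genes of the pathway were taken from lists of latency and activation genes, activin and BMP receptors, antagonists, Smads and target genes, of which 59 of 67 had a probe. With ASCs 1 was higher and 3 were lower at 7 days, and 8 were higher and 1 lower at 90 days. In between, at 30 days, 1 was lower, and by 180 days 1 was higher. Itgb6, the epithelial integrin chain that frees TGF-β from its latency peptide, was higher with ASCs at 7 days by 1.81 ± 0.42 (SE, limma adjusted p = 0.00113). Tgfbi, a matrix protein induced by TGF-β, was lower at 7 days by 0.65 (log2 difference -0.65 ± 0.18 SE, limma adjusted p = 0.00659). Cdkn1a, the cell cycle inhibitor p21 and a target of Smads and of p53, was lower at 7 days (-0.80 ± 0.13 SE, limma adjusted p = 1.04e-05) and higher at 180 days (0.66 ± 0.13, limma adjusted p = 4.40e-04). Nrros, which holds latent TGF-β on macrophages and microglia, was lower at 30 days (-0.94 ± 0.23 SE, limma adjusted p = 0.00712).

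At 90 days Snai2, a transcription factor of mesenchymal cells, was higher with ASCs (0.72 ± 0.18 SE, limma adjusted p = 0.00248), as was Tgif1, a repressor of Smad target genes (0.63 ± 0.10, limma adjusted p = 1.36e-06). The other 6 higher genes were Bmpr2, Dcn, Bgn, Col1a1, Col1a2 and Tagln (log2 differences of 0.75 to 1.02), named after their values were seen, since each was saturated or not bright on some of the 16 arrays. The 1 lower gene, likewise outside that rule, was Thbs1, which encodes thrombospondin 1, an activator of latent TGF-β (limma adjusted p = 0.00983). It was not well above background on any seeded array of 90 days, and no fold is given. Of the higher genes, Dcn, Col1a1 and Col1a2 are also in the fibroblast and Tagln in the smooth muscle list used below. Among the 19 target genes measured 4 were higher and 0 lower at 90 days, and 0 were higher and 2 lower at 7 days. Among 12 antagonists 3 were higher at 90 days, and among 7 Smads and cofactors none was called at any day. From 30 to 90 days 4 targets rose and 10 fell in BAM only, and 5 rose and 8 fell with ASCs. Over those days 35.2% of all probes were higher and 9.49% lower in BAM only. With ASCs 17.8% were higher and 10.3% lower. Of the 59 genes 6.78%, 1.69%, 15.3% and 1.69% were called between grafts over the 4 days in order, beside 7.71%, 1.67%, 12.4% and 2.42% of all probes. Shares of all probes by direction are given above for 7 and 90 days. At 30 days 1.2% were higher and 0.474% lower, and at 180 days 2.38% were higher and 0.0428% lower. The counts were not tested as lists.

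Marker levels of other cells moved along with some of these results. They are given as sums, over the markers of a cell type, of signals relative to the 75th percentile of the array. At 7 days the urothelium sum was 51.2 to 170.6 (median 143.1) with ASCs and 2.61 to 121.1 (median 40.3) with BAM only, and 9 of 11 urothelium markers were DEGs, all higher. The neutrophil sum was 7.27 to 27.3 (median 10.9) with ASCs and 13.6 to 94.3 (median 40.0) with BAM only, with 1 of 6 markers a DEG, lower, and Elane not well above background on any seeded array. The macrophage sum at 7 days was 78.1 to 101.8 with ASCs and 77.8 to 153.5 with BAM only, with 0 of 9 called. The endothelium sum at 7 days was 11.7 to 17.1 (median 13.9) with ASCs and 16.1 to 27.9 (median 21.0) with BAM only, and 2 of 7 markers, Kdr and Vwf, were DEGs, both lower. The urothelium, neutrophil and endothelium lists move with Inhba, Itgb6, Tgfbi and Cdkn1a at 7 days, and their part in those differences was not tested. At 30 days the macrophage sum was 62.0 to 97.2 (median 78.9) with ASCs and 99.3 to 116.8 (median 108.0) with BAM only. None of its 9 markers was called, and their median log2 difference was -0.72, beside 0.11 over all probes. The part of macrophages in the differences of Nrros, Tgfb1 and Tgfbr1 at 30 days was not tested.

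At 90 days the smooth muscle sum was 193.9 to 340.2 (median 243.4) with ASCs and 97.3 to 316.0 (median 127.7) with BAM only, with 3 of 9 markers called, all higher. The fibroblast sum was 174.1 to 228.2 (median 197.2) with ASCs and 88.6 to 220.8 (median 105.2) with BAM only, with 3 of 8 called, all higher. From 30 to 90 days 7 of 9 macrophage markers fell in BAM only and 3 with ASCs, beside 9.49% and 10.3% of all probes. None rose, and all 9 were well above background on every array at 30 days. The part of these cells in the differences of Inhbb, Tgfb2, Snai2 and Tgif1 at 90 days, and in the falls of Inhba, Tgfb1 and Tgfbr1, was not tested.

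The genes whose arrays deviated most like each member were found by Pearson r of deviations from the 8 group means over 64 arrays, among 11162 genes, and are a description only. For Inhba these were Fst, Picalm and Clip2 (r = 0.69, 0.65 and 0.65), where Fst encodes follistatin, the activin antagonist. For Tgfb1 they were Fxyd5, Sh3bgrl3 and Tnfsf13 (r = 0.88, 0.88 and 0.88). For Tgfb3 they were Pmp22, Igfbp6 and Ccdc80 (r = 0.76, 0.74 and 0.74), and among those for Tgfbr1 were Ctsk and Mitf (r = 0.89 and 0.88). For Ltbp2 they were Sfrp4, Fn1 and Loxl1 (r = 0.80, 0.79 and 0.78), where Fn1 encodes fibronectin and Loxl1 an enzyme that crosslinks elastin. For Ltbp1 the closest was Slit3 (r = 0.70), for Tgfbr2 Fam13a (r = 0.78), for Inhbb Arf6 (r = 0.67) and for Tgfb2 Slc35b4 (r = 0.62). All arrays share scale and background, so these values carry both. Among the members themselves, r was 0.66 for Tgfb1 with Tgfbr1, 0.65 for Tgfb1 with Ltbp2, 0.60 for Tgfb3 with Ltbp1 and 0.46 for Tgfb1 with Inhba.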

How the data were processed

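Total RNA of reconstructed bladder walls was measured on 64 one-color arrays of 62976 spots. The authors deposited the Agilent Feature Extraction 12.0.1.1 output of each array, whose processed signal is an intensity after background correction within the array, with no normalization between arrays. The deposited series matrix holds the same intensity (61 of 64 columns within 0.01 on the log2 scale) and served as an alternative. Arrays were grouped by the graft and day in the labels. The labels give 10 rats per group, fewer than the study's text.

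Control spots were left out, as were outlier spots, except where all spots of a probe were flagged. The brighter Tgfb2 probe and both Tgfbr2 probes had 1 spot each, so an outlier flag could not remove their values. Spots were scaled on the log2 scale to the 75th percentile of their array and averaged per probe, giving 30367 probes. A probe was well above background where at least 0.5 of its spots were. Accessions were matched to RefSeq symbols of GRCr8 for 18750 of 22372 probes with one, and all 10 members had an upstream window there.

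Group means were fitted over all 64 arrays with limma 3.58.1 in R 4.3.3, with Benjamini-Hochberg adjustment over all probes. Python 3.11.15 with numpy 2.4.6 and pandas 2.3.3 was used for the rest. On simulated data for the comparison at 7 days with 200 changed probes of 30367, 44% of those changed by log2 1 and 86% of those changed by log2 2 were recovered, with 4 false calls. The simulation gave each probe the same SD in all 8 groups. In the data the SD of a probe differed between groups (0.28 to 1.92 for Ltbp2), so these rates may not hold for them. The members, gene lists and tests were chosen with earlier results of these data known. The text names all 10 members by their brighter probe. Second probes are given for some of the comparisons in which they differ in call or direction. From the pathway lists the text names, per day, up to 2 DEGs that rose most and 2 that fell most. These had to be bright and unsaturated on all 16 arrays. The alternatives tried were quantile normalization, normexp correction (offset 50), no dim probes, the series matrix, scaling over detected probes only, a fit of the groups compared alone, the replicate number as a block, a model without moderation as in the study's methods, a 2-fold threshold, an unadjusted p, outlier spots kept, the mean of a gene's probes, and leaving out each array in turn. With 1 group per slide, slide could not serve as a block. Over the 4 comparisons of grafts, the platelet list (4 genes) had 1 call, the endothelium list (7) 3, the adipocyte list (6) 1, and the lymphocyte, skeletal muscle and mesothelium lists 0. One gene whose arrays deviated like those of a member is not reported here.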

Additional observations from a re-analysis of the deposited data

Results flagged for a closer look

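Among 80 sets of 8 arrays (10 genes in 8 groups), 7 had 1 array whose gap to the others exceeded the critical value of Dixon's test, which chance gives in about 1 of 20 sets. For Tgfb2 it was BAM replicate 3 at 90 days, at 1.12 against -2.27 for the nearest array, and its second probe read -3.44 there. For Ltbp2 it was BAM seeded with ASCs replicate 3 at 90 days, at -5.81, where the second probe was also low at -5.89, and BAM replicate 7 at 30 days, at -1.06. The same BAM replicate 7 was the low array for Tgfbr2, at -1.51. BAM seeded with ASCs replicate 1 at 30 days stood high for Tgfbr3, at -3.84, and for Inhbb, at -0.69. On that whole array 95.6% of spots were well above background. Its median probe signal was -2.12, against -3.34 to -3.07 on the other arrays of its group, and the part of this in the 2 flags was not tested. For Inhba it was BAM replicate 2 at 180 days, at -0.64.

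The effect of the graft differed between days for 3 genes by the limma test of the difference. For Inhba it was higher at 180 than at 7 days by 1.15 (adjusted p = 0.00233). For Inhbb it was lower at 90 than at 7 days, with a difference of -0.93 (adjusted p = 0.00332) on the brighter probe, against 0.96 on the second probe (adjusted p = 0.146) and 0.014 for the mean of both (adjusted p = 0.98), and higher at 180 than at 90 days by 1.24 (adjusted p = 4.69e-05). For Tgfb2 it was higher at 180 than at 90 days by 2.07 (adjusted p = 0.00259), and by 1.55 without BAM replicate 3 at 90 days. On the second Tgfb2 probe the graft difference was -0.33 at 90 and 0.48 at 180 days.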

How the results depend on the processing

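Of 132 counts of members called under alternatives of processing or model, 102 stayed within 1.5 times the count reported, and of 687 log2 differences of single members 633 kept direction and call. At 7 days the number of members called between grafts (1 as reported) was 0 after quantile normalization, with a 2-fold threshold and in a fit of these groups alone, and 2 with an unadjusted p and without dim probes. At 30 days (0 as reported) it was 1 after quantile normalization and 2 with an unadjusted p. At 90 days (2 as reported) it was 0 after normexp correction and in a fit of these groups alone, and 1 after quantile normalization, with a 2-fold threshold, with the mean of a gene's probes and without dim probes. At 180 days (0 as reported) it was 1 with the mean of probes. In BAM only from 7 to 30 days (2 as reported) it was 1 after normexp correction and with the mean of probes and 0 with a 2-fold threshold. From 30 to 90 days (5) it was 2, and from 90 to 180 days (3) it was 1, with a 2-fold threshold. For the latter it was 0 in a fit of these groups alone and without dim probes. With ASCs from 7 to 30 days (1) it was 0 after normexp correction, quantile normalization, scaling over detected probes and with a 2-fold threshold, and from 90 to 180 days (0) it was 1 with an unadjusted p and with the mean of probes. For differences between days (4) it was 9 with an unadjusted p and 2 in fits of the groups compared alone. The cause was not tested, apart from the fewer genes or arrays of those fits.

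Replicate numbers shared by the grafts did not pair the arrays, since same-numbered deviations correlated between -0.28 and 0.33 and 9 of 32 pairs were over 0.1. With the number as a replicate block 2 members were called at 7 days, Inhba and Tgfb3, and no other count moved by over 1.5 times.

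Differences that changed sign were small, except for Inhbb. After normexp correction they were -0.049 for Inhbb and -0.049 for Ltbp1 at 7 days and 0.037 for Tgfbr3 at 90 days. After quantile normalization Tgfb3 at 30 days was -0.00078 and Tgfbr1 at 90 days 0.014, and with scaling over detected probes Tgfbr1 at 90 days was 0.027. With the mean of probes Inhbb was -0.58 at 7 days and 0.090 at 30 days, its change from 7 to 30 days in BAM only was -0.62, its graft effect at 90 minus 7 days was 0.014, and Ltbp2 at 7 days was 0.10.

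Leaving out 1 array at a time gave 0 to 2 members called between grafts at 7 days, 0 to 1 with ASCs from 7 to 30 days (0 without ASCs 7 days replicate 5, 7 or 8 or ASCs 30 days replicate 1 or 3), 1 to 2 in BAM only from 7 to 30 days, and 3 to 5 with ASCs from 30 to 90 days, where 5 were called, Tgfb1 and Ltbp2 added, without ASCs 90 days replicate 1. The other counts stayed within 1.5 times, those between days from 4 to 6. Tgfbr1 ranged from -0.11 to 0.061 at 7 days, -0.10 to 0.091 at 90 days and -0.096 to 0.017 at 180 days, Tgfb3 at 30 days from -0.039 to 0.14, Tgfbr3 at 90 days from -0.27 to 0.14 and Ltbp2 at 180 days from -0.053 to 0.82. Values at 90 and 180 days are limited by the smaller share of spots above background.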
